A study of Mus musculus with 9 samples.

Results

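The cytosolic ribosomal protein genes were taken as every gene whose array symbol was Rpl or Rps followed by a number and at most 1 letter, together with Rplp0, Rplp1, Rplp2 and Rpsa. The symbol rule used no measured value and left out the Rps6k kinases. It found 80 genes with 137 probes, of which 78 genes were kept by the filter on dim probes, among 16736 genes tested. The 78 were 43 large subunit genes, 32 small subunit genes and the 3 stalk genes. Rpl3l and Rpl39l, paralogs of restricted use, were on the array with 1 and 2 probes and were not well above background on any of the 9 arrays, so no level is given for them.

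Ribosomal proteins assemble with ribosomal RNA into the large subunit, which joins amino acids, and the small subunit, which reads the messenger RNA. The stalk proteins Rplp0, Rplp1 and Rplp2 recruit the elongation factors. Their messenger RNAs are among the most abundant in a growing cell and typically begin with a run of pyrimidines, the terminal oligopyrimidine (TOP) tract, through which the mTOR pathway and the RNA-binding protein Larp1 control their translation. Control at the level of translation is not seen in an RNA measurement.

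The RNA came from 3T3-L1 preadipocytes, an established mouse fibroblast line that can become adipocytes. All cultures were grown with 10% serum and starved of serum for 48 h before the treated ones were given 70 µM of either compound, X-1 or X-3, for 24 h, and the labels name no vehicle for the controls. Both compounds are called mangiferin derivatives in the series title and are known here only by these codes. The groups were X-1, X-3 and control, with 3 one-colour arrays each, and the design text speaks of independent experiments. The comparisons ask how each compound changed the ribosomal protein messenger RNAs and whether the compounds differed at the same dose and time.

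All 11 preadipocyte or fibroblast markers listed were measured, and of 6 mature adipocyte markers only Adipor2 was, with Adipoq, Plin1, Cidec, Lep and Retn not well above background on all 3 arrays of any group. Of 4 blood cell markers and 3 each of epithelium, endothelium and striated muscle, Cd68, Lyz2, Krt8 and Tnnt3 were measured. Each level below is the log2 intensity of a gene's brightest kept probe minus the 75th percentile of log2 intensity on that array. That percentile was 10.59, 9.70 and 9.57 in X-1 cultures and 10.56, 9.61 and 9.79 in X-3 cultures, against 10.85, 10.14 and 9.88 in control cultures, for replicates 1, 2 and 3. It was lower on every treated array than on the control array of the same slide, so the scaling raises treated values. No spot carried the scanner software's saturation flag, although the highest processed value exceeded the nominal saturation value on some arrays. Replicate number and slide coincided, and on every slide control, X-1 and X-3 held the same 3 positions, which means that group cannot be told apart from position. With 3 arrays in a group, precision is limited. In RNA from a whole culture, fewer cells of a type and less RNA per cell cannot be told apart.

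The markers themselves moved with treatment. Of the 11 preadipocyte or fibroblast markers 4 were higher and 3 lower with either compound, by the test defined below, but of the 4 (Ly6a, Cd34, Dlk1 and Fn1) only Ly6a was positive with X-1 under spike-in scaling, and Dlk1 was negative there with X-3. Ly6a rose by 3.38 on the log2 scale with X-1 and 3.58 with X-3, while Pdgfra fell by 1.36 with X-1 and by 1.34 with X-3, and Pdgfrb and Thy1 were lower with both. Their summed signal, as log2 over the array's 75th percentile, ran from 10.58 to 10.86 in X-1 cultures and from 10.59 to 10.70 in X-3 cultures, against 10.57 to 10.83 in control cultures. Of the other markers, Adipor2 differed from control by 2.46 with X-1 and 1.88 with X-3, Krt8 by 1.89 and 2.38, Cd68 by 0.73 and 1.11 (−0.04 and 0.83 with spike-in scaling) and Lyz2 by −1.57 and −1.53, all called. Tnnt3 was at −0.89 with X-1, called, and at −0.35 with X-3, not called. Their part in the ribosomal protein results was not tested.

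RefSeq promoter windows (GRCm38.p6) were matched by symbol for 60 of the 80 genes. Those of 8 genes are shown from 40 bases before to 20 after the annotated start, on the gene's strand, because these genes carry large increases or, as Rps27l, stand against the majority, with Rps27 shown as its paralog. The capitals mark the longest unbroken run of C or T within 20 bases of the start. The windows lie at chr4:86857348-86857407 on the minus strand for Rps6, chr7:3704001-3704060 on the plus strand for Rps9 and chr7:4792925-4792984 on the plus strand for Rpl28. They lie at chr17:27635225-27635284 on the minus strand for Rps10, chr10:80292391-80292450 on the plus strand for Rps15, chr16:55966235-55966294 on the plus strand for Rpl24, chr9:66946046-66946105 on the plus strand for Rps27l and chr3:90213629-90213688 on the minus strand for Rps27.
Rps6: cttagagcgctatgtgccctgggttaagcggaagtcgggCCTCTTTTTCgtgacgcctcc
Rps9: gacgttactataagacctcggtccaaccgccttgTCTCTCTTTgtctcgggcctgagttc
Rpl28: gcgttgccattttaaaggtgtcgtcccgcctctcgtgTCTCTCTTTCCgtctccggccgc
Rps10: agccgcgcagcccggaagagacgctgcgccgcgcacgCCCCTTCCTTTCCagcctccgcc
Rps15: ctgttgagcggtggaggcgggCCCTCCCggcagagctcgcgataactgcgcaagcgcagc
Rpl24: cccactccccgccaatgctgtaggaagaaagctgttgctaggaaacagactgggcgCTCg
Rps27l: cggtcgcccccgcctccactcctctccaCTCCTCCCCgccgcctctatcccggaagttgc
Rps27: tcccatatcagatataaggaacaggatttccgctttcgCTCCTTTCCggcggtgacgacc

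The run was 10 bases in Rps6, 9 in Rps9, 11 in Rpl28 and 13 in Rps10, each spanning the annotated start. It was 7 bases in Rps15, ending before the start, and 3 bases in Rpl24. Rps27l had a run of 9 bases that ended before the start in the window shown and a run of 4 in its other window, while Rps27 had a run of 9 across the start. A run of at least 8 pyrimidines lay within 20 bases of the start in 30 of 72 ribosomal protein windows (41.7%), compared with 16.0% of all 32851 windows. On the coding strand in the same stretch, CTCTTTC was found in 9.72% of ribosomal protein windows and 0.560% of all windows, and CTTTCC in 15.3% and 1.95%. CCGGAAG, searched on both strands over the 300 bases from 250 before to 50 after the start, was found in 37.5% of ribosomal protein windows and 8.86% of all windows. Beside the run, the median log2 difference from control was 0.40 for X-1 and 0.41 for X-3 among the 29 measured genes with it, and 0.44 for X-1 and 0.43 for X-3 among the 29 without it. These are descriptions of letters in a window and no test was made.

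X-1 cultures had more ribosomal protein messenger RNA relative to the array's 75th percentile, with 41 of 78 genes higher than control and 2 lower. The median difference was 0.41, but it was −0.47 when the arrays of replicates 2 and 3 were scaled to spike-in RNA. Every value with spike-in scaling rests on those replicates alone. With the 75th percentile 28.0% of all genes tested were called higher and 28.2% lower, so 52.6% of the ribosomal protein genes higher compares with 28.0% of all genes. The genes that rose most were Rps6 and Rps9 of the small subunit and Rpl28 and Rpl26 of the large subunit. Rpl3 and Rps27l fell. A call is an adjusted p under 0.05 from limma fitted to all 9 arrays and adjusted over all genes, and each difference below carries its standard error with 3 arrays per group.

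The median difference of 0.41 (range −0.57 to 0.74) compares with 0.06 over all genes. By slide it was 0.28, 0.56 and 0.40, and 67 of the 78 genes (85.9%) were higher on X-1 than on control on all 3 slides, against 42.7% of all genes. The X-1 and control arrays did not overlap for 47 genes that were higher, or 60.3%, against 34.7% of all genes, and for 3 that were lower, against 33.8% of all genes. Of the small subunit genes 20 of 32 were called higher (median 0.42), and of the large subunit genes 20 of 43 (median 0.39). Without X-1 replicate 2 the count of higher genes was 13 of 78, a smaller share than the 23.6% of all genes called higher there. Without X-1 replicate 3 or control replicate 2 it was 20 of 78, near the 24.5% of all genes in each of these fits. The count was 26 without control replicate 1, where 25.9% of all genes were higher. The median stayed between 0.35 and 0.50 whichever array was left out. The p-values measure the spread between these samples.

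In the small subunit, Rps6, the protein phosphorylated by the S6 kinases, had levels of 5.88, 6.10 and 6.03 on the X-1 arrays, against 5.39, 5.28 and 5.14 on the control arrays. All 3 X-1 arrays lay above all 3 control arrays, and the difference was 0.74 ± 0.13, a fold of 1.66 (adjusted p = 0.00119, limma), but −0.08 with spike-in scaling. Rps9, a protein of the decoding region's shoulder that guards translational accuracy, had 5.57, 5.75 and 5.67 on the X-1 arrays, against 4.85, 5.03 and 5.00 on the control arrays. These groups did not overlap either, and Rps9 rose by 0.70 ± 0.14 (adjusted p = 0.00222, −0.24 with spike-in scaling).

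Rpsa, which is also known as a laminin receptor, rose by 0.59 ± 0.18 (adjusted p = 0.0188), with 6.27, 6.80 and 6.87 in X-1 cultures, against 5.83, 6.13 and 6.19 in control cultures. Replicate 1 was lowest in both groups, and the call ended without X-1 replicate 2 or 3 or control replicate 1. Rps7, which is needed for small subunit assembly, rose by 0.57 ± 0.13 (adjusted p = 0.00400), and Rps3, which lies at the entry of the messenger RNA channel and has a role in DNA repair, by 0.56 ± 0.16 (adjusted p = 0.0133). With spike-in scaling Rpsa, Rps7 and Rps3 were at −0.27, −0.23 and −0.25, and with quantile normalization at 0.30, 0.03 and 0.07. The call of Rps3 was lost without X-1 replicate 2 or 3.

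In the large subunit, Rpl28 had 7.17, 7.84 and 7.90 on the X-1 arrays, against 6.86, 6.78 and 7.32 on the control arrays. Replicate 1 of X-1 lay below replicate 3 of control, so the groups overlapped, and the rise of 0.64 ± 0.22 (adjusted p = 0.0317, −0.12 with spike-in scaling) was lost without X-1 replicate 2 or 3 or control replicate 1 or 2. Rpl26, which sits near the exit tunnel and is known to bind p53 messenger RNA, had 7.47, 7.81 and 7.88 on the X-1 arrays, against 7.0, 7.21 and 7.18 on the control arrays. It rose by 0.59 ± 0.14 with no overlap (adjusted p = 0.00588, −0.29 with spike-in scaling). Rpl5, which carries 5S ribosomal RNA and binds MDM2 together with Rpl11, rose by 0.45 ± 0.16 (adjusted p = 0.0401, −0.53 with spike-in scaling), a call lost in 5 of the 9 fits that left out 1 array. Rpl11 was not called (0.25 ± 0.14, adjusted p = 0.171).

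Rpl3, a core protein near the peptidyl transferase centre, went against the majority. It had 5.89, 6.06 and 6.04 on the X-1 arrays, against 6.49, 6.50 and 6.66 on the control arrays, with every X-1 array below every control array. It fell by 0.56 on the log2 scale (SE 0.13, adjusted p = 0.00603). Rps27l, a paralog of Rps27 that is a known p53 target, had 4.94, 5.00 and 4.73 on the X-1 arrays, against 5.61, 5.24 and 5.53 on the control arrays. It fell by 0.57 on the log2 scale (SE 0.17, adjusted p = 0.0196), also with no overlap, though not past the threshold without X-1 replicate 3, control replicate 1 or control replicate 3. Rps27 itself was at 0.48 ± 0.13 (adjusted p = 0.00998, −0.38 with spike-in scaling). Rpl3 and Rps27l were the 2 ribosomal protein genes called lower under all 6 scalings compared, with spike-in values of −1.47 and −1.46.

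Of the stalk genes, Rplp0 rose by 0.53 ± 0.20 (adjusted p = 0.0449, −0.29 with spike-in scaling), with 8.74, 9.29 and 9.36 in X-1 cultures, against 8.44, 8.52 and 8.83 in control cultures. Its groups overlapped, and the call was lost in 6 of the 9 fits that left out 1 array. Rplp1 was at 0.46 ± 0.19 (adjusted p = 0.0652) and Rplp2 at 0.38 ± 0.17 (adjusted p = 0.0857), and neither passed. Rps27a, made as a fusion with ubiquitin, rose by 0.47 ± 0.14 (adjusted p = 0.0165, −0.35 with spike-in scaling and −0.05 with quantile normalization), a call lost without X-1 replicate 2 or control replicate 2 or 3. Rps4x, a small subunit protein encoded on the X chromosome, rose by 0.51 ± 0.12 (adjusted p = 0.00482, −0.34 with spike-in scaling). Rpl22, a large subunit protein with a close paralog, Rpl22l1, was at 0.41 ± 0.16 (adjusted p = 0.0566), while its second probe was at −0.89 ± 0.13.

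**Figure D1:**
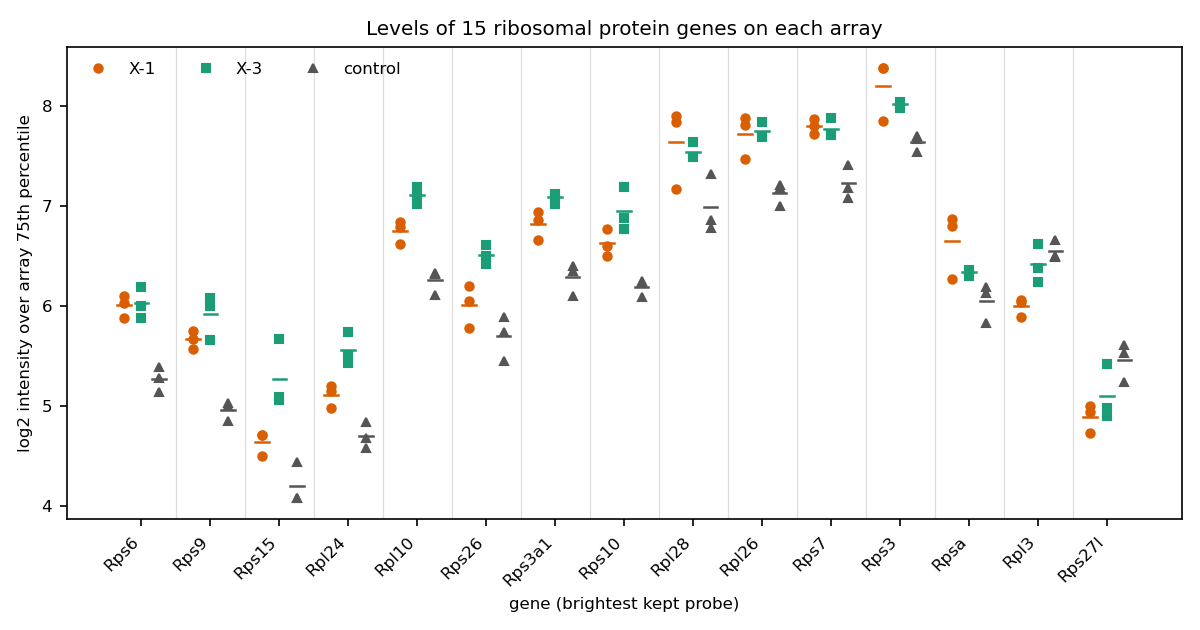
Levels of 15 ribosomal protein genes on each of the 9 arrays, as log2 intensity over the array's 75th percentile (points, with group means as bars), for X-1, X-3 and control. Levels are to be compared within a gene only. For Rps6 the X-1 arrays lie at 5.88 to 6.10 and the control arrays at 5.14 to 5.39, and for Rps27l the X-1 arrays lie below the control arrays. With spike-in scaling the X-1 difference of Rps6 was −0.08 instead of 0.74.

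X-3 cultures also had more ribosomal protein messenger RNA relative to the 75th percentile, with 37 of 78 genes higher than control and 0 lower, but the median difference was −0.36, instead of 0.41, with spike-in scaling. At an unadjusted p under 0.05, 42 were higher and 0 lower. These 42 are 53.8% of the ribosomal protein genes, against 60.3% of all genes with such a p in either direction. Over all genes 28.9% were called higher and 26.4% lower, 55.3% in either direction. The genes that rose most were Rps15 and Rps9 of the small subunit and Rpl24 and Rpl10 of the large subunit, and these 4 also had positive values with spike-in scaling, though none was called there.

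The differences ran from −0.36 to 1.07, and the median compares with 0.05 over all genes. By slide the median was 0.52, 0.42 and 0.29, and 69 of 78 genes (88.5%) were higher on X-3 on all 3 slides, against 39.4% of all genes. The groups did not overlap for 60 genes that were higher, or 76.9%, against 32.7% of all genes, and for 0 that were lower, against 29.2% of all genes. Of the large subunit genes 21 of 43 were called higher (median 0.44), of the small subunit genes 16 of 32 (median 0.35), and of the stalk genes 0 of 3 (Rplp0 at 0.36 ± 0.20, Rplp1 at 0.37 ± 0.19 and Rplp2 at 0.20 ± 0.17). Leaving out any 1 array gave between 30 and 43 genes higher, where 24.9% to 31.9% of all genes were.

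Rps15, a small subunit protein near the decoding site, had 5.67, 5.09 and 5.06 on the X-3 arrays, against 4.44, 4.08 and 4.08 on the control arrays. Replicate 1 was the highest of both groups, and every X-3 array lay above every control array. Rps15 rose by 1.07 ± 0.19, a fold of 2.10 (adjusted p = 0.00123), and was at 0.27 with spike-in scaling. Rps9 had 5.66, 6.0 and 6.08 on the X-3 arrays, against 4.85, 5.03 and 5.00 on the control arrays, and rose by 0.95 ± 0.14 (adjusted p = 0.000403, 0.30 with spike-in scaling).

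Rps26, which contacts the messenger RNA upstream of the start codon, had 6.61, 6.42 and 6.50 on the X-3 arrays, against 5.89, 5.45 and 5.74 on the control arrays. The groups were apart, and Rps26 rose by 0.82 ± 0.16 (adjusted p = 0.00202, 0.15 with spike-in scaling). Rps3a1, listed on the array as Rps3a, rose by 0.80 ± 0.13 (adjusted p = 0.000736, 0.02 with spike-in scaling), with 7.02, 7.11 and 7.12 on the X-3 arrays and 6.10, 6.40 and 6.35 on the control arrays. Rps6 rose by 0.75 ± 0.13 (adjusted p = 0.00117), at 6.19, 5.88 and 6.0 on the X-3 arrays against the control values given above. Rps10, near the head of the small subunit and a gene of Diamond-Blackfan anaemia in humans, rose by 0.75 ± 0.14 (adjusted p = 0.00181). With spike-in scaling Rps6 was at 0.01 and Rps10 at −0.05.

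In the large subunit, Rpl24, which takes part in a bridge between the subunits, had 5.74, 5.43 and 5.51 on the X-3 arrays, against 4.84, 4.58 and 4.68 on the control arrays. It rose by 0.86 ± 0.13 with no overlap (adjusted p = 0.000591, 0.12 with spike-in scaling). Rpl10, which joins late in large subunit maturation, had 7.19, 7.02 and 7.11 on the X-3 arrays, against 6.11, 6.32 and 6.33 on the control arrays. It rose by 0.85 ± 0.12 (adjusted p = 0.000368, 0.02 with spike-in scaling). Its second probe gave 0.89 ± 0.13. Rpl5 rose by 0.68 ± 0.16 (adjusted p = 0.00643, −0.03 with spike-in scaling), while Rpl11, its partner in the 5S particle, was at 0.15 ± 0.14 (adjusted p = 0.404).

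Rpl22 rose by 0.57 ± 0.16 (adjusted p = 0.0149, −0.21 with spike-in scaling), a call lost without control replicate 1. Its second probe went the other way, at −0.39 ± 0.13 (adjusted p = 0.0348 by limma over all kept probes). Rps4x rose by 0.52 ± 0.12 (adjusted p = 0.00461, −0.20 with spike-in scaling). Rps27a rose by 0.50 ± 0.14 (adjusted p = 0.0133, −0.24 with spike-in scaling), a call lost without control replicate 3. Rps27l was at −0.36 ± 0.17 (adjusted p = 0.107) and Rpl3 at −0.14 ± 0.13 (adjusted p = 0.404). Neither of these genes, which fell with X-1, was thus called with X-3 on this scale. With spike-in scaling both were called lower with X-3 by limma (−1.16 and −0.8, adjusted p = 0.000518 and 0.0191). Quantile normalization also called both lower (−0.41 and −0.44, adjusted p = 0.0401 and 0.0348). The array median and cyclic loess called neither.

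**Figure D2:**
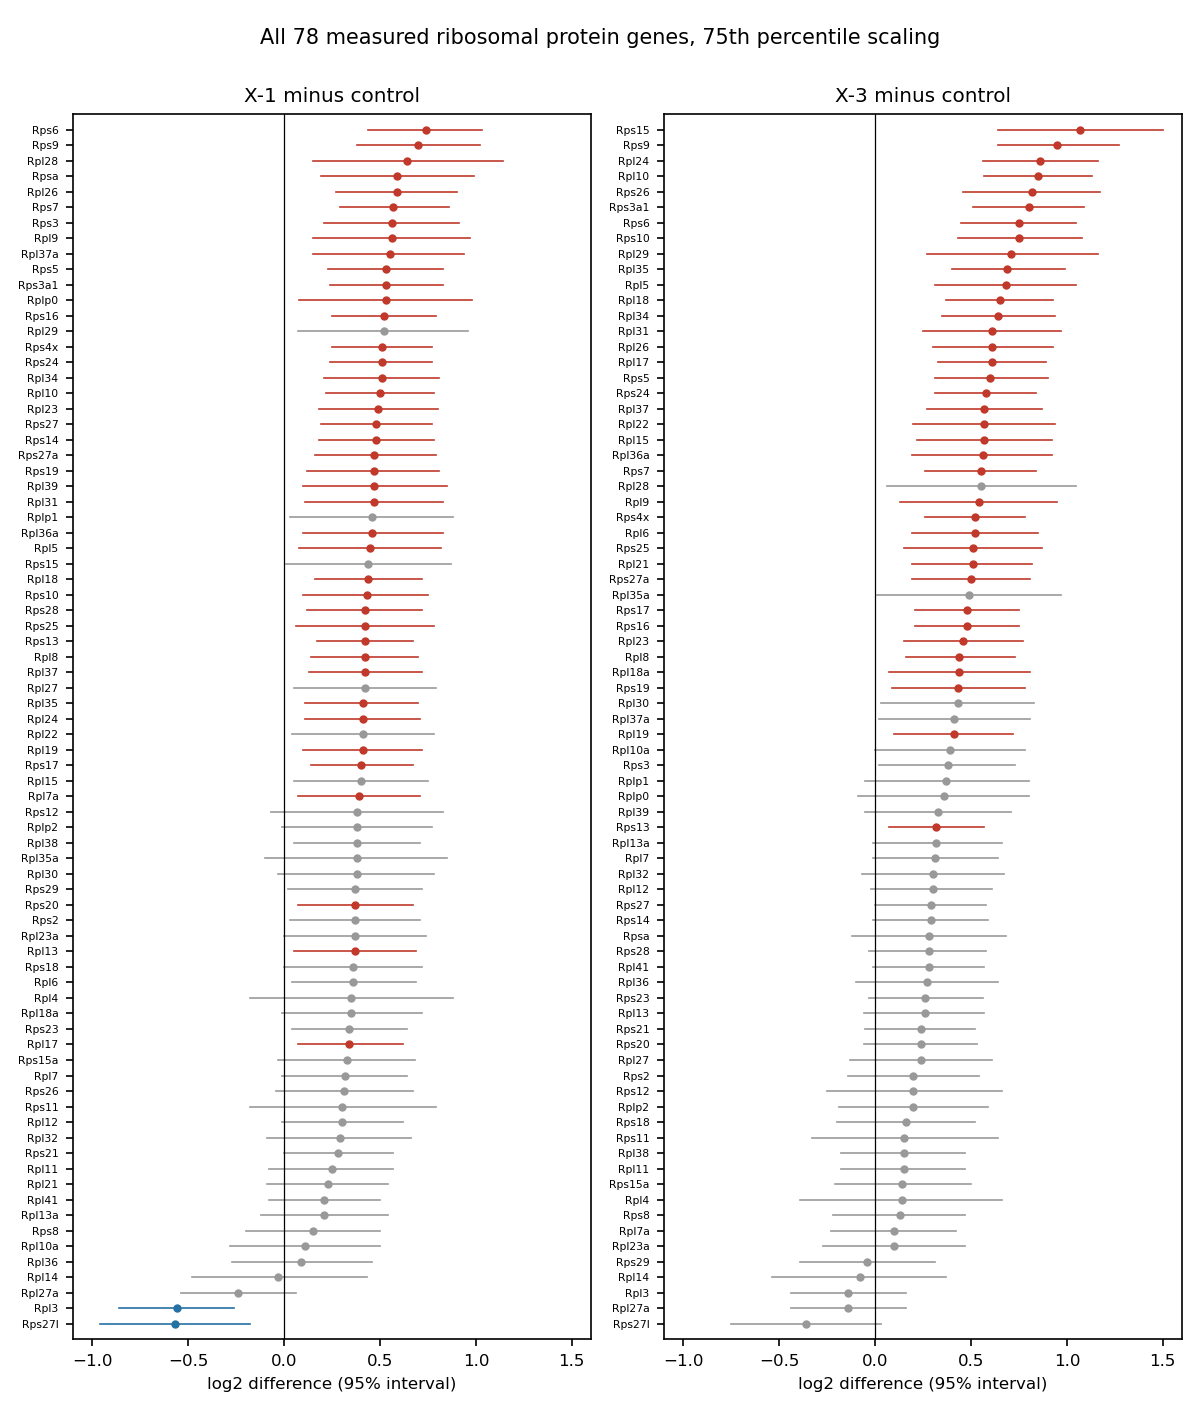
Log2 differences of all 78 measured ribosomal protein genes from control with 95% intervals, sorted, for X-1 (left) and X-3 (right), with 75th percentile scaling. Red marks genes called higher (41 for X-1, 37 for X-3), blue those called lower (Rpl3 and Rps27l for X-1) and grey those not called. With spike-in scaling the medians were −0.47 and −0.36 instead of 0.41 and 0.41.

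The X-1 and X-3 differences share the same 3 control arrays, so their likeness is not independent. A call in 1 comparison and not in the other does not show a difference between the compounds, which was tested directly.

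Between the compounds, 0 ribosomal protein genes were called in X-3 minus X-1 by limma, where 6.97% of all genes were called higher and 3.57% lower. The median difference was 0.01 (range −0.41 to 0.63), the same as the 0.01 over all genes. At an unadjusted p under 0.05, 6 genes were higher with X-3 (Rps15, Rps26, Rpl24, Rpl3, Rpl10 and Rps10, named here after their values were seen) and 1 was lower (Rps29). These 7 are 8.97% of the ribosomal protein genes, against 27.4% of all genes with such a p. With the slide as a block 1 gene, Rps15, was called higher, where 6.55% of all genes were. Quantile normalization called 4 higher and cyclic loess 5, where 8.37% and 7.47% of all genes were called higher.

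Rps15 differed most, at 5.67, 5.09 and 5.06 on the X-3 arrays, against 4.71, 4.71 and 4.50 on the X-1 arrays. The compounds did not overlap, and the difference was 0.63 (95% interval 0.21 to 1.06, adjusted p = 0.0670). Rps26 differed by 0.50 (0.15 to 0.86, adjusted p = 0.0766), Rpl24 by 0.45 (0.15 to 0.75, adjusted p = 0.0672) and Rpl3 by 0.42 (0.12 to 0.72, adjusted p = 0.0797), each with all X-3 arrays above all X-1 arrays. For Rps26 the levels were 6.61, 6.42 and 6.50 with X-3, against 6.20, 6.05 and 5.78 with X-1. Rps29, a zinc finger protein of the small subunit, was at −0.41 (−0.76 to −0.06, adjusted p = 0.128), though only on slides 2 and 3 (−0.51 and −0.73, against 0.01 on slide 1).

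For genes with like values in both compounds the intervals bound what could be seen. The X-3 minus X-1 difference was 0.02 for Rps6 (−0.28 to 0.31), 0.01 for Rps4x (−0.25 to 0.27) and 0.03 for Rps27a (−0.29 to 0.34), and the median standard error over the 78 genes was 0.14. The compounds did not overlap for 10 genes that were higher with X-3, or 12.8%, below the 19.0% of all genes, and for 0 that were lower, against 11.8% of all genes. Slide 1 stood apart in this comparison, with a median difference of 0.28 there and 74 genes higher with X-3, against −0.13 on slide 2 (14 genes higher) and −0.08 on slide 3 (28 genes higher). The median of all genes was 0.16 on slide 1, −0.03 on slide 2 and −0.01 on slide 3. The ribosomal protein median was −0.03 once X-3 replicate 1 was left out, and −0.09 once X-1 replicate 1 was.

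How the arrays were scaled set the direction of the whole group. Before any scaling, the median log2 intensity of the ribosomal protein genes was 18.07, 17.50 and 17.29 in X-1 cultures and 18.40, 17.28 and 17.37 in X-3 cultures, against 18.07, 17.32 and 17.11 in control cultures. The unscaled values thus differed from control by 0.01, 0.12 and 0.09 with X-1 and by 0.23, −0.11 and 0.19 with X-3 (medians over genes by slide), while the median of all genes was lower on every treated array, at −0.22, −0.36 and −0.28 with X-1 and −0.19, −0.47 and −0.08 with X-3. The 6 spike-in RNAs used for scaling, read on slides 2 and 3, were brighter on the treated arrays than on control, by 0.20 to 0.29 on slide 2 and 0.79 to 1.03 on slide 3 with X-1. With X-3 they were brighter by 0.27 to 0.44 on slide 2 and 0.41 to 0.52 on slide 3.

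The count and median of the ribosomal protein genes followed these scales. With the array median as the scale, the X-1 median was 0.21 with 1 gene higher and 2 lower, where 18.7% of all genes were higher and 30.6% lower. The X-3 median was 0.21 with 6 higher and 0 lower, where 18.4% of all genes were higher and 29.1% lower. With quantile normalization it was 0.01 for X-1 (3 higher, 4 lower; all genes 25.4% and 30.8%) and 0.09 for X-3 (13 higher, 4 lower; all genes 26.4% and 28.3%). With cyclic loess it was 0.26 for X-1 (23 higher, 3 lower; all genes 26.8% and 30.3%) and 0.36 for X-3 (37 higher, 0 lower; all genes 26.3% and 29.0%). With no scaling and the slide as a block it was 0.07 for X-1 (0 higher, 3 lower; all genes 17.8% and 39.3%) and 0.11 for X-3 (6 higher, 1 lower; all genes 18% and 37.1%).

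With spike-in scaling, 0 genes were higher and 9 lower with either compound (limma, 2 arrays per group), and 0 higher with 12 lower for X-1 and 13 lower for X-3 at an unadjusted p under 0.05. Of all genes, 8.63% were called higher and 60.2% lower with X-1 on that scale, and 10.5% higher and 49.7% lower with X-3. At the unadjusted p these shares of all genes can only be equal or larger. Spike-in scaling moved the median of all genes to −0.875 for X-1 and −0.671 for X-3, and the array median moved it to −0.145 and −0.150.

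Relative to all genes on the same scale, the median of the ribosomal protein genes lay 0.35 higher for X-1 and 0.36 higher for X-3 with the 75th percentile. A scale that shifts every gene of an array alike leaves this gap as it is, which holds for the array median and for no scaling. Spike-in scaling, also such a shift, gave 0.41 and 0.31 on the arrays of replicates 2 and 3 alone. The gap was free to change with cyclic loess, where it was 0.26 and 0.38, and with quantile normalization, where it was 0.04 and 0.10. The sign of a single gene follows the same shifts, above all that of spike-in scaling, which gave each of the 78 genes its lowest value with either compound. With X-1, 0 genes were positive under all 6 scalings and 4 were negative under all 6 (Rpl3, Rps27l, Rpl27a and Rpl14). With X-3, 7 were positive in all 6 (Rps15, Rps9, Rpl24, Rpl10, Rps26, Rps3a1 and Rps6) and 5 negative (Rps27l, Rpl3, Rpl27a, Rpl14 and Rps29).

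Scaling each array to the median of the ribosomal protein genes themselves, a choice made after the data were seen, showed which members moved apart from the group. With X-1, 0 lay above and 5 below, which were Rps27l (−1.03, adjusted p = 0.000448), Rpl3 (−1.01, adjusted p = 0.000537), Rpl27a (−0.70, adjusted p = 0.00036), Rpl14 (−0.48) and Rpl36 (−0.36). With X-3, 4 lay above (Rps15 at 0.59, Rps9 at 0.47, Rpl24 at 0.38 and Rpl10 at 0.37) and 10 below, the lowest being Rps27l (−0.84, adjusted p = 0.0015). Of all genes, 15.5% were called higher and 45.2% lower with X-1 on this scale, and 14.3% and 45.4% with X-3. The ribosomal protein values are relative to the group and say nothing of its level.

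**Figure D3:**
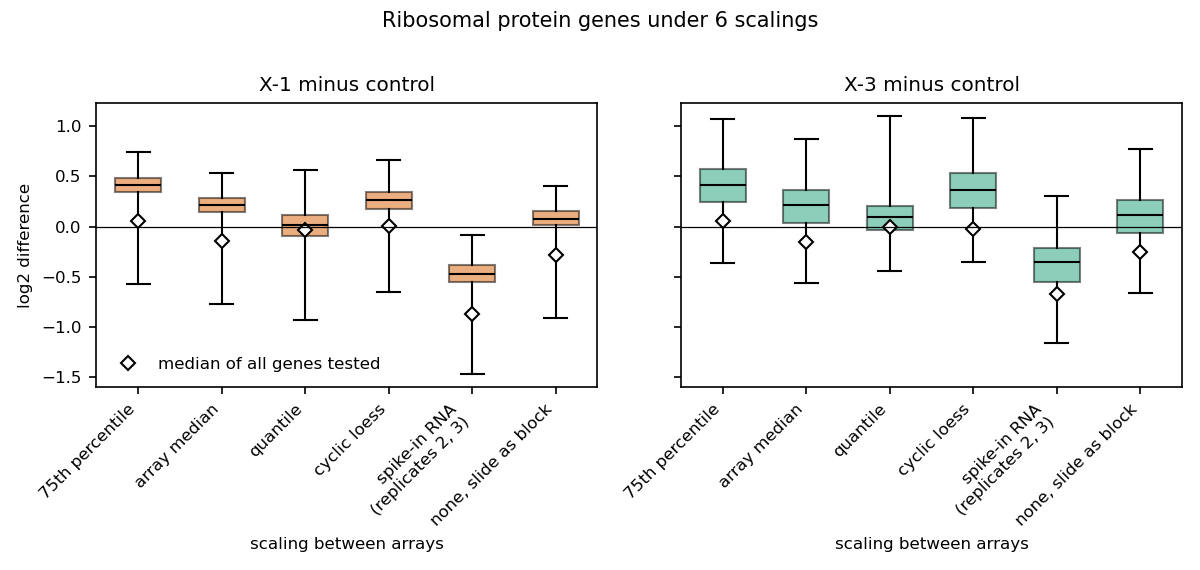
Log2 differences from control of the 78 ribosomal protein genes under 6 ways of scaling the arrays, for X-1 (left) and X-3 (right). Boxes hold the middle of the genes with the median as a line, whiskers run from the lowest to the highest gene, and diamonds give the median of all genes tested. The median is 0.41 for both compounds with the 75th percentile and −0.47 and −0.36 with spike-in scaling, always above the diamond.

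Brightness moved with these results. Of the 78 genes, 66 lay among the brightest 2% (335 genes) and 75 among the brightest 10%, and 21 had a mean log2 intensity within 1 of the scanner's saturation value (19.28 on average). The brightest spike-in RNA, at 18.67 on average, differed between arrays by less than the 6 dimmer ones, by 0.15 and 0.52 with X-1 and 0.14 and 0.32 with X-3 on slides 2 and 3. Other genes as bright had differences of a similar size. Among genes with a mean log2 intensity of 17 to 18, the median X-1 difference was 0.42 for 24 ribosomal protein genes and 0.40 for 75 other genes, and the median X-3 difference was 0.50 for the ribosomal protein genes and 0.34 for the others. Above 18 it was 0.38 for 28 ribosomal protein genes and 0.36 for 30 others with X-1, and 0.28 and 0.33 with X-3.

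At 15 to 17, where 20 ribosomal protein genes and 537 other genes lay, the medians were further apart, at 0.42 for the ribosomal protein genes and 0.15 for the others with X-1, and 0.57 and 0.01 with X-3. This range holds Rps6, Rps9, Rpl24, Rps26, Rps3a1 and Rpl10, and also Rpl3 and Rps27l, which were called lower with X-1. With the brightest probe under a mean log2 of 17 taken for each gene, 49 genes remained, of which 21 were higher and 3 lower with X-1 (median 0.41) and 30 higher and 1 lower with X-3 (median 0.52). Of all genes, 27.8% were called higher and 28.4% lower with X-1 in that fit, and 28.9% and 26.5% with X-3. The part of signal near saturation in the ribosomal protein differences was not tested.

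**Figure D4:**
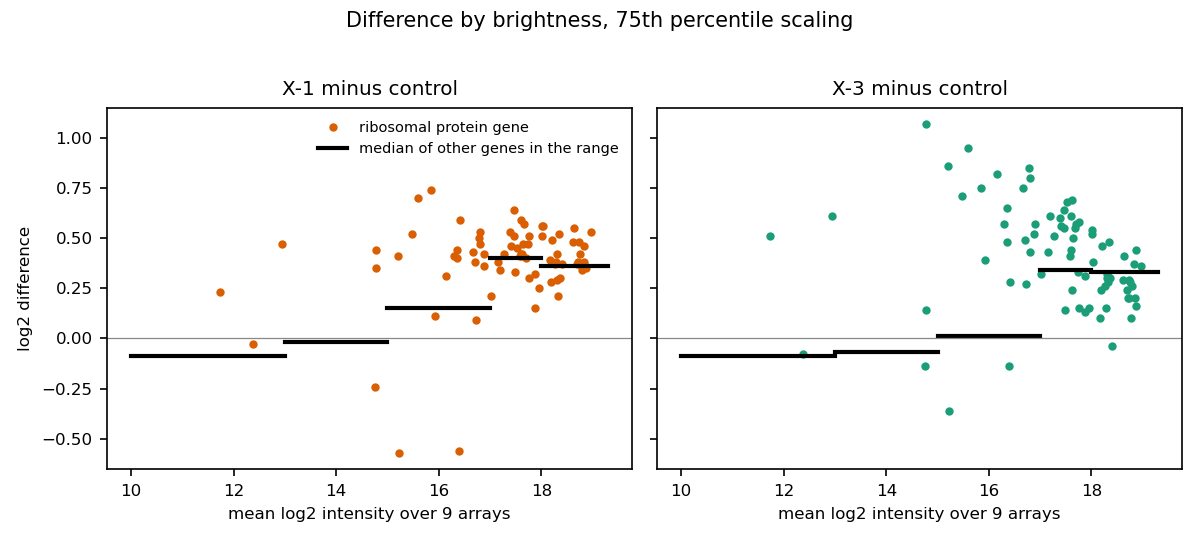
Log2 difference from control against mean log2 intensity over 9 arrays, for X-1 (left) and X-3 (right), with 75th percentile scaling. Points are the 78 ribosomal protein genes and black bars the median of the other genes in each brightness range. At 15 to 17 the other genes have medians of 0.15 and 0.01, and at 17 to 18 of 0.40 and 0.34. With spike-in scaling the ribosomal protein medians were −0.47 and −0.36.

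Several probes were kept for 41 of the genes. Over the 132 kept probes, 56 were higher and 6 lower with X-1, and 63 higher and 3 lower with X-3. Of all 25288 kept probes, 54.8% were called in either direction with X-1 and 54.1% with X-3. Taken in either direction, the ribosomal protein probes were thus called less often than all probes. In X-3 minus X-1, 0 of them were called by limma, where 9.07% of all kept probes were. An unadjusted p under 0.05 was found there for 14 of the 132, and the share of all probes with such a p was not counted. Among 27 genes with several RefSeq transcript probes above background on all arrays, the dimmest probe gave the larger difference in 12 with X-1 and in 18 with X-3. The median difference was 0.34 at the dimmest probe and 0.41 at the brightest with X-1, and 0.51 and 0.38 with X-3. Rplp0 had 3 probes with X-3 differences of 0.36, 0.59 and 0.85 in falling order of brightness, and Rpl7, which lies at the surface of the large subunit, had 0.31, 0.67 and 1.00.

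In 4 genes kept probes differed by over 1 on the log2 scale. Rps20, a small subunit protein, was at 0.37 ± 0.13 with X-1 (adjusted p = 0.0375, −0.50 with spike-in scaling, a call lost in 7 of the 9 fits that left out 1 array) and 0.24 ± 0.13 with X-3 by its bright probe, but at −2.25 ± 0.16 and −2.27 ± 0.16 by a probe designed on a cDNA clone, 2862 bases away on mm9. On that probe's 9 arrays the mean log2 intensity was 8.66, against 18.70 for the bright probe. The second probe of Rps6, also designed on a cDNA clone, was at −1.37 ± 0.19 with X-1 and −1.17 ± 0.19 with X-3, and lay 18687 bases from the first, further than the 3269 bases of the RefSeq gene. The second probe of Rps15a, 10034 bases away, was at 1.49 ± 0.14 with X-1 and 1.01 ± 0.14 with X-3, against 0.33 ± 0.16 and 0.14 ± 0.16 at the first. Rpl22 was at 0.41 ± 0.17 with X-1 by its first probe and −0.89 ± 0.13 by its second, 3854 bases away within the gene. With X-3 these Rpl22 probes were at 0.57 ± 0.17 and −0.39 ± 0.13. Which transcript each dim probe reads was not tested. The brighter Rpl10 probe and the Rpl12 probe were placed by the array design on chromosomes 8 and 10 of mm9, while RefSeq has the genes on X and 2, and ribosomal protein genes have many processed pseudogenes, so signal from near-identical copies cannot be told apart.

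**Figure D5:**
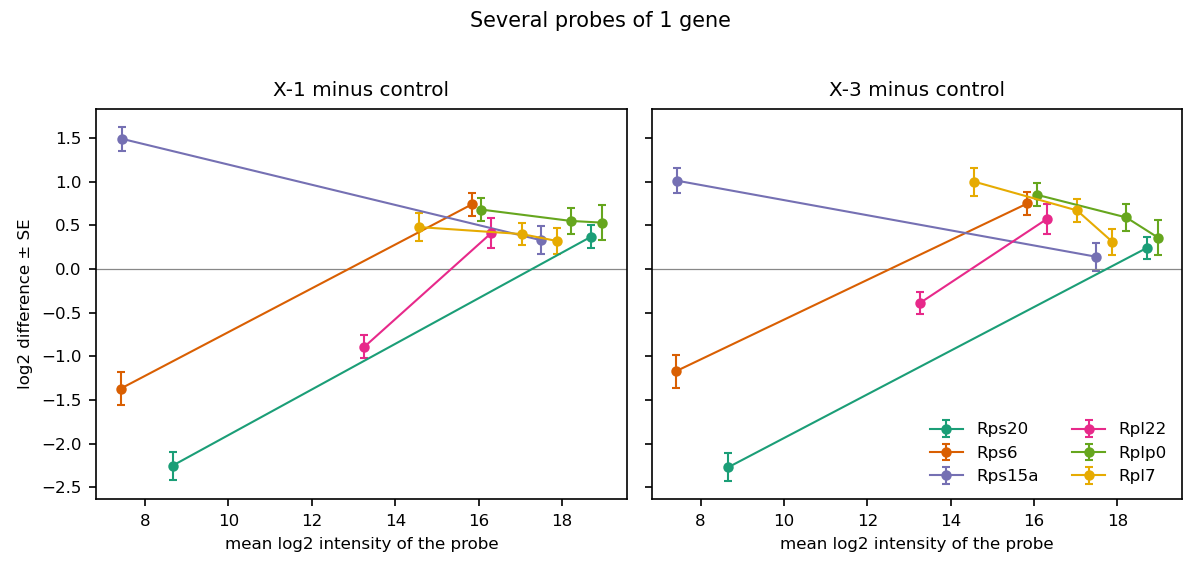
Log2 difference from control (± SE) of each kept probe of 6 ribosomal protein genes against the probe's mean log2 intensity, for X-1 (left) and X-3 (right), with 75th percentile scaling. Lines join probes of 1 gene. The dim probes of Rps20 and Rps6 lie at −2.25 and −1.37 with X-1 while their bright probes lie at 0.37 and 0.74, and the bright Rps6 probe was at −0.08 with spike-in scaling.

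Other genes of the translation apparatus were read from 3 lists. Of 18 translation factors and other messenger RNAs known to carry a TOP tract, 9 rose and 0 fell with X-1 and 9 rose and 0 fell with X-3, with a median of 0.44 in both, where 28.0% and 28.9% of all genes were called higher. With spike-in scaling 16 of the 18 were negative with X-1 and 16 with X-3 (medians −0.45 and −0.41), all but Eef2 and Eif4b. At 50% called higher the list is near the 52.6% and 47.4% of the ribosomal protein genes, and the difference between the lists was not tested. Eif4b, an initiation factor that is a target of the S6 kinases, had 4.72, 4.92 and 4.98 in X-1 cultures and 5.15, 5.19 and 5.12 in X-3 cultures, against 3.46, 3.46 and 3.74 in control cultures. All treated arrays lay above control, and Eif4b rose by 1.32 ± 0.13 with X-1 (adjusted p = 2.68e-05) and 1.6 ± 0.13 with X-3 (adjusted p = 1.05e-05), with 0.41, not called, and 0.84 under spike-in scaling. Eef2, the translocation factor, rose by 1.45 ± 0.48 with X-3 (adjusted p = 0.0294), with 4.89, 6.36 and 6.51 on the X-3 arrays and 4.66, 4.10 and 4.66 on the control arrays. Replicate 1 of X-3 lay close to control, and the call was lost without X-3 replicate 2 or 3 or any 1 control array.

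Among measured ribosomal proteins that the symbol rule leaves out, Rack1 (0.47 with X-1 and 0.35 with X-3) rose with both compounds and Fau (0.54) with X-1. With spike-in scaling these 3 differences were −0.38, −0.35 and −0.29. Rpl36al (−0.12 with X-1 and −0.02 with X-3) and Rpl7l1 (−0.28 and −0.14) were not called with either. Rpl22l1, the paralog of Rpl22, fell by 0.97 with X-1 (SE 0.32, adjusted p = 0.0283) and by 0.97 with X-3 (SE 0.32, adjusted p = 0.0281).

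Regulators of TOP translation were mixed, with 4 of 21 higher and 9 lower with X-1 (median −0.06), where 28.0% of all genes were higher and 28.2% lower, and 2 higher and 8 lower with X-3 (median −0.16), where the shares were 28.9% and 26.4%. With spike-in scaling the medians were −1.01 and −0.69. Ddit4, a hypoxia- and stress-induced inhibitor of mTOR signalling, had 5.49, 4.47 and 3.97 in X-1 cultures and 5.39, 4.08 and 4.03 in X-3 cultures, against 2.28, 2.07 and 1.83 in control cultures. It rose by 2.59 ± 0.44 with X-1 (adjusted p = 0.000928) and 2.44 ± 0.44 with X-3 (adjusted p = 0.00144), and stayed higher with spike-in scaling (1.33 and 1.39). Tsc2, part of the complex that inhibits mTOR, had 2.63, 3.17 and 3.30 in X-1 cultures and 3.35, 3.37 and 3.42 in X-3 cultures, against 4.25, 4.53 and 4.56 in control cultures.

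Tsc2 fell by 1.41 with X-1 (SE 0.18, adjusted p = 0.000158) and by 1.06 with X-3 (SE 0.18, adjusted p = 0.000996). The kinases that phosphorylate Rps6 went both ways. Rps6kb1 fell by 1.15 with X-1 (adjusted p = 0.000409) and by 1.47 with X-3 (adjusted p = 0.000103), and Rps6kb2 fell by 1.15 with X-1. Rps6ka2 fell by 2.20 with X-1 and by 1.48 with X-3. Its single probe was well above background in only 1 X-1 culture, but in all 3 X-3 and all 3 control cultures. The size of its X-1 fall is therefore uncertain, being read close to background. With X-1, Rps6ka1 rose by 0.96 ± 0.30 (adjusted p = 0.0212, 0.05 with spike-in scaling) and Rps6ka3 by 0.61 ± 0.21 (adjusted p = 0.0312, −0.38 with spike-in scaling), and with X-3 they were at 0.72 ± 0.30 and 0.25 ± 0.21 and not called. Averaged over all kept probes, Rps6kb1 was at −0.28 with X-3 and not called, and Rps6kb2 was at 0.12 with X-1. Of the 45 measured genes of the 3 lists, 0 were called in X-3 minus X-1 by limma, where 10.5% of all genes were. An unadjusted p under 0.05 was found for 6 of the 45, where 27.4% of all genes had one. Quantile normalization called 1 and spike-in scaling called 2.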

How the data were processed

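RNA of 9 cultures was hybridised to one-colour Agilent arrays, 3 per group. The deposited scanner files give the processed intensity of each spot, background-subtracted by Feature Extraction 10.5.1.1 (slide 1) or 10.7.3.1 (slides 2 and 3), per the file headers. Version 9.1 stands in the submitters' processing notes. The authors also deposited a score per probe, of unstated scale. Set against the scanner values it was quantile normalized and standardized, and it was turned to log2 with 4.08 per unit (r of at least 0.998).

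Outlier spots and controls were left out (214 probes), spots of 1 probe were averaged over 40960 probes, and log2 intensity was centred on each array's 75th percentile. A probe was kept where the scanner software called it well above background throughout some group's 3 arrays (25288 probes), and the brightest stood for its gene. limma 3.58.1 in R 4.3.3 (lmFit, eBayes, two-sided, group only, all 9 arrays) was adjusted by Benjamini-Hochberg over 16736 genes with a threshold of 0.05, and its steps were tested on simulated data. There the first limit set on the share of large changes recovered was missed and was replaced by one on genes of ordinary spread, and small changes were mostly missed, so a gene not called may still have changed. The number of arrays limits the precision.

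Genes named were the called ones with the largest differences in each comparison, those called against the majority, those whose probes differ by over 1, paralogs, a short list (Rps6, Rpl5, Rpl11, Rplp0, Rps27a) and the translation genes with the largest called differences. Members and lists were chosen with earlier results of these data known. The value of 1 gene of the translation lists is not reported here. Alternatives were array median, quantile, cyclic loess and spike-in scaling, the deposited scores, normexp (on the median signal, since the mean was not in all files), filters, probe averages, the slide as a block and leaving out each array. No scaling, ribosomal protein median scaling and dimmer probes were added after seeing the data.

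Replicate numbers, taken from the labels, coincided with slides in the file headers. Deviations of same-numbered X-1 and control arrays correlated at 0.517, 0.318 and 0.271, and of X-3 and control arrays at 0.238, 0.112 and 0.230. Those of X-3 and X-1 arrays correlated at −0.041, −0.182 and 0.156. Paired cultures and a shared slide cannot be told apart here, and the main fit used the group only.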

Additional observations from a re-analysis of the deposited data

How the results depend on the processing

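The direction of the ribosomal protein genes as a group rested on the scaling of the arrays, and 3 arrays per group limit every count. Array median scaling gave 1 gene higher with X-1 and 6 with X-3 (medians 0.21 and 0.21), and 13 and 12 of the listed translation genes called instead of 26 and 21. Those 26 and 21 are out of 45 measured, where 56.3% and 55.3% of all genes were called in either direction. Quantile normalization gave 3 higher and 4 lower with X-1 (0.01) and 13 and 4 with X-3 (0.09), with 4 higher in X-3 minus X-1 and 1 translation gene called there. Cyclic loess gave 23 higher with X-1 (0.26), 5 in X-3 minus X-1 and 1 translation gene there. Spike-in scaling gave 0 higher and 9 lower with either compound (−0.47 and −0.36), and 2 translation genes in X-3 minus X-1. The deposited scores gave 3 higher and 6 lower with X-1 (0.00) and 13 and 5 with X-3 (0.05). They also gave 4 higher and 1 translation gene in X-3 minus X-1, and 17 translation genes with X-1. Of all genes, the scores called 25.3% higher and 30.9% lower with X-1, 26.3% and 28.3% with X-3, and 8.32% higher in X-3 minus X-1. Without the filter on dim probes 19 were higher with X-1, where 16.1% of all genes were, and 17 translation genes were called. Averaging probes gave 1 lower with X-3, where 25.7% of all genes were lower, and 1 translation gene in X-3 minus X-1. Of the choices made after seeing the data, no scaling gave 0 higher with X-1 (0.07) and 6 higher and 1 lower with X-3 (0.11), ribosomal protein median scaling gave 0 higher and 5 lower with X-1, 4 and 10 with X-3 and 1 lower in X-3 minus X-1, and probes under log2 17 gave 21 higher with X-1, 1 lower with X-3 and 1 higher in X-3 minus X-1. The causes were not tested beyond what each scale does by construction.

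Leaving out 1 array gave 13 to 54 genes higher and 1 to 2 lower with X-1 (medians 0.35 to 0.50), 30 to 43 and 0 to 1 with X-3 (0.38 to 0.45), and 0 to 2 and 0 to 1 in X-3 minus X-1 (−0.09 to 0.07), where the median was −0.09 without X-1 replicate 1 and −0.03 without X-3 replicate 1. The listed translation genes called were 17 to 30, 15 to 25 and 0 to 2 in the same order. Over all genes, 23.6% to 33.2% were called higher with X-1 in these fits and 24.9% to 31.9% with X-3. With the replicate number, which is the slide, as a block, 51 genes were higher and 2 lower with X-1, and 38 and 0 with X-3. Of all genes, 30.1% were then higher and 29.3% lower with X-1, and 30.7% and 27.5% with X-3. In X-3 minus X-1, 1 gene was higher (Rps15, adjusted p = 0.0361, limma), where 6.55% of all genes were.

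Of 1322 values of named genes, 1120 kept the call or its absence, 136 lost the call, 31 gained it and 35 reversed. A reversal was counted only with a call in the main fit or in the other setting, so uncalled genes that changed sign count as kept. Such genes with spike-in scaling were, for X-1, Rpl22 (−0.46), Rps15a (−0.49) and Rpl11 (−0.62). For X-3 they included Rplp0 (−0.33), Rps20 (−0.49) and Rpl11 (−0.67). With spike-in scaling the reversed values were, for X-1, Rps6 −0.08, Rps9 −0.24, Rpl28 −0.12, Rpsa −0.27, Rpl26 −0.29, Rps7 −0.23, Rps3 −0.25, Rps20 −0.50, Rps4x −0.34, Rpl5 −0.53, Rplp0 −0.29 and Rps27a −0.35, and for X-3, Rps10 −0.05, Rpl22 −0.21, Rps4x −0.20, Rpl5 −0.03 and Rps27a −0.24. With probes averaged they were Rps6 −0.32, Rps20 −0.94 and Rps6kb2 0.12 for X-1, and Rps6 −0.21 and Rps20 −1.02 for X-3. With the scores they were Rps20 −0.04, Rpl5 −0.07, Rpl11 −0.24 and Rps27a −0.05 for X-1 and Rpl11 −0.26 for X-3, and with quantile normalization Rps20 0.00, Rpl5 −0.04 and Rps27a −0.05 for X-1. Ribosomal protein median scaling reversed Rps20 (−0.09) and Rpl5 (0.00) for X-1 and Rpl11 (−0.33) for X-3, and probes under log2 17 reversed Rps20 (−2.25 for X-1 and −2.27 for X-3).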
